A study of Mus musculus with 16 samples.

Results

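In microglia of the mouse retina, 10 genes of the Bcl2 family were followed before and after optic nerve crush: the survival genes Bcl2a1a, Bcl2a1b, Bcl2a1d, Bcl2, Bcl2l1 and Mcl1, and the death genes Bax, Bak1, Bid and Bcl2l11. They were chosen by name, with earlier results of these data known, and are 10 of the 55385 genes in the deposited expression table. Optic nerve crush damages the axons of retinal ganglion cells, the neurons that link the eye to the brain, and retinal microglia respond to it. Fluorescence-activated sorting was used to take the cells out of the retina of Iba1-EGFP animals, whose reporter is named for Iba1 (Aif1), a gene of microglia that other macrophages use as well. RNA was sequenced in bulk in 16 libraries, 4 in each of 4 groups. The groups were day 0 with no treatment in mice aged 15 weeks, day 2 and day 4 after crush in mice aged 13 weeks, and day 7 after crush in mice aged 16 weeks. All 4 groups are of the same reporter strain, and day 0 is an untreated group rather than a sham operation. The day and the age cannot be told apart except between days 2 and 4. The labels do not state whether the 4 libraries of a day are separate animals, so the p-values are about the spread among these libraries, which may be technical.

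Bcl2 family proteins decide whether the outer membrane of the mitochondrion is opened during apoptosis. Bax and Bak1 form the pores that release cytochrome c, which starts the caspase cascade. The survival proteins hold Bax and Bak1 in check by binding them and the BH3-only proteins. Bid and Bcl2l11 (Bim) are BH3-only proteins, which sense stress and tip the balance towards death. Bcl2a1 (A1) is a short-lived survival protein of blood and immune cells that NF-kB signalling can induce, and the mouse carries several nearly identical copies of its gene.

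The 3 copies lie within one stretch of chromosome 9 (build GRCm38): Bcl2a1d at chr9:88723285-88731914 on the minus strand, Bcl2a1a at chr9:88956900-88962419 and Bcl2a1b at chr9:89199209-89207827, both on the plus strand. Each has 2 exons and codes for protein. Their transcripts were 98.2% identical between Bcl2a1a and Bcl2a1b (802 of 817 aligned bases), 98.8% between Bcl2a1a and Bcl2a1d (809 of 819) and 99.1% between Bcl2a1b and Bcl2a1d (810 of 817). Across 817 compared columns the 3 copies differed in 16, and 12 of these were in the coding sequence, which has 516 bases in Bcl2a1a. The start of the coding sequence is shown because 7 of those 12 columns lie in it. These 7 are letters by which a read over this stretch could be assigned among the 3 copies, and the other differing columns lie outside it. The T and the A that only Bcl2a1b carries lie in exon bases shared with the gene model Gm29094. Neither letter by itself tells Bcl2a1b from Gm29094. The start shown is exonic sequence of the reference genome, read 5′ to 3′ on the strand of the gene. The differing columns are in capitals. The stretches are chr9:88957051-88957170 (plus strand) for Bcl2a1a, chr9:89199360-89199479 (plus strand) for Bcl2a1b and chr9:88731600-88731719 (minus strand) for Bcl2a1d.
Bcl2a1a: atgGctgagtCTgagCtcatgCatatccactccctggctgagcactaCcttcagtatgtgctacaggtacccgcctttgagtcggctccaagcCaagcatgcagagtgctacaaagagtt
Bcl2a1b: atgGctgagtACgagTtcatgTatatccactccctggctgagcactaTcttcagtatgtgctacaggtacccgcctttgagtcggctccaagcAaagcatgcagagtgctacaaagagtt
Bcl2a1d: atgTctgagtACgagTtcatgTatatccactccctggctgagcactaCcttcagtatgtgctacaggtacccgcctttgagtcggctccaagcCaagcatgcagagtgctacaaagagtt

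Of all 50-base words in each transcript, 69.0% in Bcl2a1a, 79.2% in Bcl2a1b and 79.5% in Bcl2a1d also occur in a transcript of another gene. In addition, 401 exon bases of Bcl2a1b (49.1% of its exons) are shared on the same strand with Gm29094, a gene model that also shares exon bases with Mthfs. Read numbers recovered from the table were whole in 1, 0 and 1 of the 16 libraries for Bcl2a1a, Bcl2a1b and Bcl2a1d, whereas they were whole in all 16 for Bcl2l1 and for Bcl2l11. The rows of the copies therefore hold divided reads, and the sources used here do not say by what rule. The levels of single copies are uncertain for this reason, and the 3 rows are not independent measurements.

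The copies moved together, so their upstream sequences are shown as well. They are parts of RefSeq's promoter windows (GRCm38.p6), which run from 250 bases before to 50 after each start, and all 10 genes had at least 1 such entry. The windows were 99.2% identical between Bcl2a1a and Bcl2a1b, 96.0% between Bcl2a1a and Bcl2a1d and 96.5% between Bcl2a1b and Bcl2a1d. Capitals mark a base and a 6-base stretch at which the copies differ. The 6 bases are part of a repeat, so their place within it is arbitrary. The stretches are chr9:88956714-88956855 (plus strand), chr9:89199023-89199164 (plus strand) and chr9:88731915-88732050 (minus strand), and none overlaps the annotated first exon of its own gene.
Bcl2a1a: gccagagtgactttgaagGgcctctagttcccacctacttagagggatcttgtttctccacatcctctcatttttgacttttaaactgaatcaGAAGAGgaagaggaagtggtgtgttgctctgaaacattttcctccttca
Bcl2a1b: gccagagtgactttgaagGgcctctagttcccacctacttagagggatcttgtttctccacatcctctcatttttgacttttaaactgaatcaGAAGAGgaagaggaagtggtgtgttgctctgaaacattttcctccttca
Bcl2a1d: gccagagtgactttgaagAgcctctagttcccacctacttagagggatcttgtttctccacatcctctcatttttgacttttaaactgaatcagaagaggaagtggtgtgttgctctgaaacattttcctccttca

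The letters GAGGAAGT, a form of the site bound by PU.1, a transcription factor of myeloid cells, were searched on both strands. They occur once in the window of each of the 3 copies, and in that of Bak1, against 3.2% of all 32851 RefSeq promoter windows. The NF-kB consensus occurs in none of the 3 windows and in 8.46% of all windows. Among the other members it occurs once, in 1 of the 3 windows of Bcl2l1. The letters TATAAA occur in no member's window and in 13.6% of all. No match overlapped a match of another motif. A match is a description of these letters only.

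The libraries held 8647276 to 15708302 reads. All 10 microglia markers (among them Aif1, Cx3cr1, P2ry12 and Tmem119) were above 0 in every library, with a summed level of 3118 to 12276 FPKM (fragments scaled by gene length and library size), as the label microglia implies. Rod genes summed to 1616 to 11218 FPKM, and genes of Mueller glia and astrocytes to 589 to 6539 FPKM. Apoe weighs most in the latter sum, at 487 to 6476 FPKM (median 2069), against medians of 34.5 for Rlbp1 and 50.4 for Glul. The mean log2 values that follow weigh each gene alike. Day 0 replicates 1 and 2 differed from the other 2 of their day: their mean log2(FPKM + 1) over the 10 bipolar cell markers was 4.66 and 4.4 against 2.49 and 2.1 in replicates 3 and 4, and over the 12 Mueller glia and astrocyte markers 6.37 and 5.38 against 2.91 and 3.34. Later libraries spanned 0.926 to 2.71 at day 2, 0.0588 to 1.75 at day 4 and 1.57 to 4.07 at day 7 for the bipolar list, and 2.72 to 3.23, 2.21 to 3.34 and 3.33 to 5.72 for the Mueller glia list. The bipolar list was thus lower in every day 4 library than in any of day 0. At day 7, replicate 2 came close to day 0 replicates 1 and 2 for the bipolar list (4.07, against 3.18, 1.8 and 1.57 in replicates 1, 3 and 4). For Mueller glia, day 7 replicate 1 passed day 0 replicate 2 (5.72, against 3.82, 3.33 and 3.46 in day 7 replicates 2, 3 and 4). The 8 endothelial cell and pericyte markers summed to 397 and 130 FPKM in day 0 replicates 1 and 2. They summed to 0.0634 and 0.106 in day 0 replicates 3 and 4 and to at most 35.4 in any later library. The microglia list of day 0 replicates 1 and 2 summed to 3118 and 6941 FPKM against 11773 and 12276 in replicates 3 and 4. Of these, 3118 alone lay under the range of the later days (4964 to 12274). The 5 erythrocyte markers reached 418 FPKM in day 0 replicate 1 and at most 6.51 in any other library. Markers of retinal ganglion cells and neurons summed to 26.7 to 227 FPKM. Replicates 1 and 2 of every day also share the first digits of the code in their sample titles, as do replicates 3 and 4. The digits are taken below as 2 batches, although the labels do not say what they stand for. Because the RNA is bulk, fewer cells of a type and less RNA per cell cannot be told apart.

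The Bcl2a1 copies were the only ones of the 8 tested members that changed between days by the test, and they rose at day 4. Bcl2a1d was at 19.0, 18.3, 98.9 and 81.8 FPKM in day 0 replicates 1 to 4, at 71.9, 96.0, 99.1 and 86.4 at day 2, at 224, 191, 328 and 166 at day 4, and at 138, 101, 147 and 240 at day 7. The 4 day 4 libraries lay above every library of days 0 and 2, and day 0 was spread most on the log2 scale (SD of 1.28, against 0.423 at day 4), with replicates 1 and 2 far below replicates 3 and 4. Group means were 54.5 ± 42.0, 88.3 ± 12.2, 227 ± 71.3 and 156 ± 59.1 FPKM (SD, n = 4) at days 0, 2, 4 and 7. At day 4 against day 0 Bcl2a1d was higher by 2.38 ± 0.39 (SE) on the log2(FPKM + 1) scale, with an adjusted p of 0.00491 in limma. All 4 libraries were above all of day 0, as for 12.6% of tested genes. The log2(FPKM + 1) scale understates the change of genes at low levels.

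Bcl2a1a was at 17.8, 22.1, 150 and 60.2 FPKM at day 0, 90.5, 88.7, 117 and 83.7 at day 2, 175, 195, 305 and 147 at day 4, and 136, 101, 127 and 263 at day 7. One day 0 library, replicate 3, reached the range of day 4, and the other 3 day 0 libraries were below all libraries of the later days. From day 0 to day 4 its mean went from 62.4 ± 61.1 to 206 ± 68.9 FPKM (SD, n = 4), a rise of 2.15 ± 0.44 (adjusted p = 0.012), with 3 of 4 libraries above all of day 0.

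Bcl2a1b was at 12.7, 33.4, 84.8 and 131 FPKM at day 0, 100, 119, 124 and 77.4 at day 2, 173, 179, 370 and 204 at day 4, and 142, 109, 122 and 283 at day 7. Its mean went from 65.3 ± 53.0 to 231 ± 93.4 FPKM (SD, n = 4) at day 4, a rise of 2.2 ± 0.47 (adjusted p = 0.0147). All 4 libraries were above all of day 0, as for 12.6% of tested genes. Gm29094, which shares exon bases with Bcl2a1b, rose by 2.0 ± 0.39 (adjusted p = 0.0105). Summed as 1 row, which removes the question of how reads were divided among the 3 copies but not with Bcl2a1c or Gm29094, the Bcl2a1 genes rose by 2.23 ± 0.41 (adjusted p = 0.0076).

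**Figure D1:**
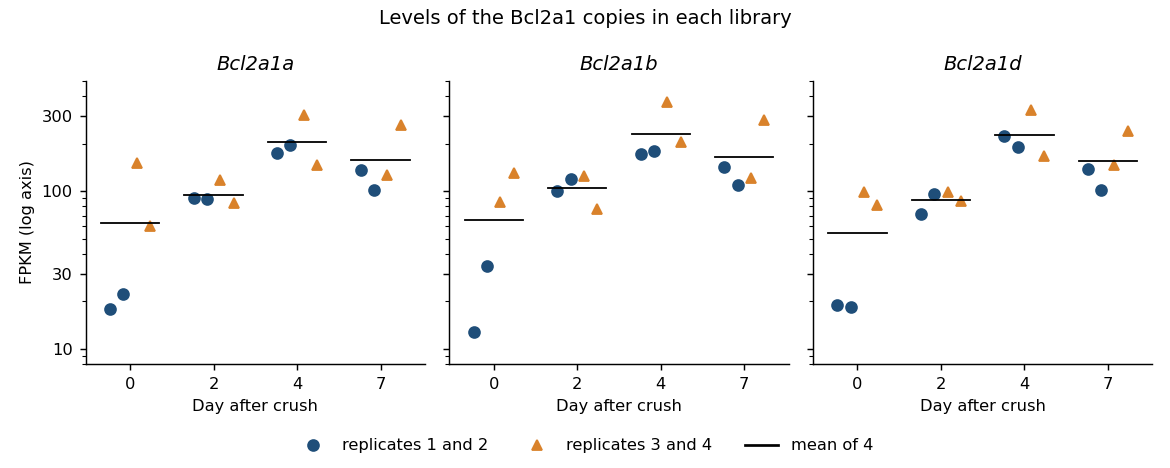
FPKM of the 3 Bcl2a1 copies on a log axis against the day after crush, with 1 point per library (circles, replicates 1 and 2; triangles, replicates 3 and 4) and a bar at the mean of 4. Day 0 replicates 1 and 2 lie between 12.7 and 33.4 FPKM, below every other library, and the day 4 libraries lie between 147 and 370.

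These 3 were 3 of the 8 tested members called at day 4 against day 0 (adjusted p under 0.05), where 5.34% of the 14795 tested genes were called, 4.62% as higher. Because the 3 rows share reads, they are not separate results. With the copies as 1 row, that row alone of 6 was called (adjusted p = 0.0076 in limma). The members were chosen with earlier results of these data known, so counts set beside the background are a description. The median change of the 8 tested members was 0.71, against 0.16 over all tested genes, and 0.39 with the 3 copies counted as 1 row. Bak1 and Bcl2l11 did not reach 1 FPKM in 4 libraries and were not tested. In the F test over the 4 days, 2 of the 8 were called, Bcl2a1d (adjusted p = 0.0157) and Bcl2a1a (0.0457), against a background of 2.89%, and Bcl2a1b missed the threshold (0.0556). This count differed by over 1.5 times in 23 of 33 alternatives, where it was 0 or 1, and among them in 12 of the 16 that left out a single library.

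The day 4 rise was larger in batch 1 than in batch 2, by a difference that did not pass the threshold after adjustment. Within batch 1 the changes of Bcl2a1d, Bcl2a1a and Bcl2a1b were 3.40, 3.16 and 3.03, and within batch 2 they were 1.37, 1.15 and 1.38. The adjusted p of the difference between batches was 0.283, 0.432 and 0.56 in limma. Before adjustment over all tested genes it was 0.00225, 0.0141 and 0.0440. Batch 2 alone, with 2 libraries a day, gave the 3 copies adjusted p-values of 0.223, 0.417 and 0.296, and called none of the 10350 genes tested there. The day 0 libraries of batch 1 are the ones with low Bcl2a1. Within day 0 they have the lower microglia list and the higher rod, bipolar, Mueller glia and endothelial lists. Their rod list summed to 11218 and 4946 FPKM, against 2425 and 2467 in the day 0 libraries of batch 2. Rods were not part of any covariate. The rise was measured again in 4 ways that bear on the day 0 libraries of batch 1. Without both of them the changes were 1.44, 1.21 and 1.23 and Bcl2a1d alone was called (adjusted p of 0.0476, 0.163 and 0.134). With the bipolar and Mueller glia lists as a covariate they were 1.0, 0.66 and 0.69 and none was called (0.387, 0.689 and 0.711), nor was any other of the 14795 genes. The bipolar list does not overlap between days 0 and 4, so part of this covariate moves with the comparison itself and cannot be told apart from the day. With the microglia list as a covariate they were 2.35, 2.11 and 2.15, and with the libraries scaled to the same summed microglia list 2.4, 2.17 and 2.23, and all 3 were called both times. As a share of the summed microglia list, the Bcl2a1 copies stood at 1.06% to 2.83% at day 0 and 2.01% to 4.57% at day 2. They stood at 6.69% to 11.8% at day 4 and 4.56% to 11.5% at day 7. The list itself was not constant, so these shares and the 2 fits that use it depend on it too. In batch 1 it summed to 3118 and 6941 FPKM at day 0 and to 6234 and 7407 at day 4. In batch 2 it summed to 11773 and 12276 at day 0 and to 8531 and 7733 at day 4.

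Other macrophages and immune cells can use Bcl2a1 and pass an Iba1 gate. The 13 neutrophil markers summed to 8.2 to 92.7 FPKM at day 0, 10.5 to 77.2 at day 2, 25.3 to 41.3 at day 4 and 7.09 to 67.8 at day 7, with most of it in Csf3r. S100a8 and S100a9, the most abundant transcripts of neutrophils, reached at most 0.82 and 1.79 FPKM in any library, and Ly6g 0.209. The 8 monocyte markers summed to 5.56 to 47.8 FPKM at day 0 and 3.5 to 27.7 at day 2. They summed to 0.748 to 27.8 at day 4 and 6.39 to 24 at day 7. Ccr2 reached at most 0.18 in any library, but other genes of the list were higher. The highest Plac8 values were 0.72, 5.63, 10.2 and 16.8 at days 0, 2, 4 and 7. Those of F13a1 went the other way, at 47.4, 25.6, 21.6 and 0.192. Ly6c2 reached 18.3 at day 0 and S100a4 14.3 at day 7. The 7 markers of border-associated macrophages summed to 33.8 to 238 FPKM at day 0, 61.4 to 199 at day 2, 82.5 to 350 at day 4 and 12.6 to 80.1 at day 7. Those of T, NK and B cells summed to at most 31.3 FPKM in any library. The part of border-associated macrophages or monocytes in the Bcl2a1 rise was not tested.

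The day 4 call of 2 of the copies was lost under other choices. Scaling by median-of-ratios factors, which moved the median change of all genes at day 4 from 0.16 to -0.17, left Bcl2a1d called (1.91, adjusted p = 0.0185) and put Bcl2a1a at 1.68 (0.0544) and Bcl2a1b at 1.73 (0.0655). Leaving out day 4 replicate 2 put Bcl2a1a at 0.0512 and Bcl2a1b at 0.052, and testing with no filter on low values put Bcl2a1b at 0.0557.

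Before and after day 4 the copies lay between these levels. At day 2, Bcl2a1d, Bcl2a1a and Bcl2a1b were at 1.07 ± 0.39, 1.09 ± 0.44 and 1.12 ± 0.47 (SE) above day 0, with adjusted p-values of 0.355, 0.415 and 0.432. Within batch 1 the difference was 2.1, 2.12 and 2.35, and within batch 2 it was 0.04, 0.06 and -0.10 (adjusted p of the difference between batches 0.204, 0.351 and 0.282). Before adjustment the p-values of the difference between batches were 0.0021, 0.0122 and 0.00606 in limma. Day 2 of batch 2 consists of the 2 libraries whose titles carry the letter F, where all other titles carry M, and the labels do not say what the letters mean. With the full title code as covariate the day 2 differences were 0.68, 0.68 and 0.49, and without the F libraries 1.5, 1.52 and 1.79. At day 7 the 3 copies were at 1.83 ± 0.39, 1.72 ± 0.44 and 1.67 ± 0.47 above day 0, with adjusted p-values of 0.0684, 0.129 and 0.17. Within batch 1 the day 7 differences were 2.60, 2.50 and 2.53, and within batch 2 1.05, 0.94 and 0.82. All 4 day 7 libraries of Bcl2a1d were above all of day 0, as for 2.51% of tested genes. None of the 8 tested members was called at day 2 (background 0.311%) or at day 7 (background 0.406%). An unadjusted p under 0.05 was found for 5 of the 8 at day 2, against 9.73% of all tested genes, and for 3 of the 8 at day 7, against 12.1%, and the 3 copies are among them both times.

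Day 4 against day 2 is the comparison whose difference leaves out day 0 and in which age is shared. Its SE still rests on the spread within all 4 days, day 0 among them. The 2 days share no full title code in either batch, and a fit with the full code links them only through days 0 and 7. Day and code thus cannot be told apart directly in this comparison. In it all 4 day 4 libraries of each copy lay above all 4 of day 2, as for 7.83% of tested genes, but none was called: Bcl2a1d was at 1.31 ± 0.39, Bcl2a1a at 1.06 ± 0.44 and Bcl2a1b at 1.08 ± 0.47 (adjusted p of 0.174, 0.362 and 0.392). The batches gave 1.30 and 1.32 for Bcl2a1d, 1.04 and 1.09 for Bcl2a1a and 0.68 and 1.48 for Bcl2a1b. Without the 2 F libraries, which are day 2 of batch 2, the differences were 0.88, 0.63 and 0.42 for Bcl2a1d, Bcl2a1a and Bcl2a1b, and with the full title code 2.09, 1.85 and 1.94, with none called. Without both day 0 libraries of batch 1 the differences stayed at 1.31, 1.06 and 1.08, with smaller SEs of 0.26, 0.34 and 0.32. Their adjusted p-values were then 0.0501, 0.193 and 0.154 in limma. No member was called here (background 0.453%), at day 7 against day 4 (background 1.63%) or at day 7 against day 2 (background 0.0946%). The members with an unadjusted p under 0.05 were 5, 2 and 0 of the 8 in these comparisons, against 11.4%, 16.3% and 9.18% of all tested genes. By mean level the order for each copy was day 4, day 7, day 2 and day 0. No neighbouring pair in that order passed the test: day 7 against day 4 was at -0.56, -0.43 and -0.53 for Bcl2a1d, Bcl2a1a and Bcl2a1b (adjusted p of 0.515, 0.676 and 0.619), and day 7 against day 2 at 0.76, 0.63 and 0.55 (0.586, 0.697 and 0.767).

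Across the 16 libraries the log2 levels of the copies were correlated at r = 0.926 to 0.973, as rows that share reads would be. Of 5758 other genes compared, those with the most similar pattern were for Bcl2a1a the further copy Bcl2a1c (r = 0.9; 96.4% identical over 443 aligned bases, so it can share reads), Rps2-ps8 (0.899) and the lysosomal membrane gene Cd68 (0.898). For Bcl2a1b they were the SNARE gene Vamp8 (0.946), Gng5-ps (0.936) and Rps13-ps2 (0.929), and for Bcl2a1d the inflammasome adaptor Pycard (0.918), the tetraspanin Cd9 (0.909) and the signalling adaptor Lcp2 (0.898). The libraries share day, batch and microglial content, so these values only describe the pattern. Bcl2a1c, on the same chromosome at 114330135 to 114330578, was low, with 3.09 ± 2.98 FPKM at day 0 and 8.30 ± 3.29 at day 4 (SD, n = 4), and was not called (1.38 ± 0.53, adjusted p = 0.149).

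Of the other survival genes, Bcl2l1 (Bcl-xL), which also protects many neurons and blood cells, was high at days 0 and 4 and low at days 2 and 7, without passing the test. It was at 23.0, 7.31, 24.7 and 12.1 FPKM at day 0, 3.08, 4.76, 9.69 and 8.28 at day 2, 19.7, 22.3, 28.7 and 11 at day 4, and 11.1, 4.80, 10.6 and 6.0 at day 7. All day 4 libraries were above all day 2 libraries, as for 7.83% of tested genes. The difference was 1.55 ± 0.46 (adjusted p = 0.174), with 2.18 within batch 1 and 0.92 within batch 2. Day 2 was at -1.21 ± 0.46 against day 0 (adjusted p = 0.374), day 7 at -0.89 ± 0.46 (0.45) and day 7 against day 4 at -1.23 ± 0.46 (0.193). The gene lies at chr2:152780668-152831728 on the minus strand, and no 50-base word of its transcripts occurs in another gene's.

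Mcl1, a survival gene whose protein turns over fast, had group means of 25.1 to 32.2 FPKM beside SDs of 6.91 to 18 within a day. The gene lies at chr3:95658788-95663176 on the plus strand. It was at 27.1, 20.0, 10.9 and 47.1 FPKM at day 0, 16.3, 4.05, 40.2 and 39.9 at day 2, 34.8, 25.3, 28.1 and 40.7 at day 4, and 30.3, 15.5, 36.4 and 42.4 at day 7. The groups overlapped at every day, and day 4 against day 0 was 0.44 ± 0.54 (SE, adjusted p = 0.689). Both this difference and the 0.34 ± 0.46 of Bcl2l1 (adjusted p = 0.724) turned negative under median-of-ratios scaling, to -0.016 and -0.10. At day 2 the 2 libraries of batch 1 were the lowest of the group, and the change from day 0 was -1.38 in batch 1 and 0.78 in batch 2.

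Bcl2 (chr1:106538178-106714274, minus strand), the founding member of the family, was low and uneven. It was at 1.57, 2.91, 0 and 0 FPKM at day 0, 0.196, 1.03, 0 and 1.94 at day 2, 1.30, 0.674, 2.21 and 0.0104 at day 4, and 0.0338, 0.0226, 0 and 0.0887 at day 7. In the 4 libraries listed at 0, that value allows up to 0.0232 to 0.0343 FPKM (3 reads, counting error only). All 4 day 7 libraries were under 0.1 FPKM, but both day 0 libraries of batch 2 were listed at 0, so the groups overlapped. Its change was -0.78 ± 0.49 at day 7 (adjusted p = 0.533), -0.12 at day 2 and 0.08 at day 4, and its direction turned under several settings.

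**Figure D2:**
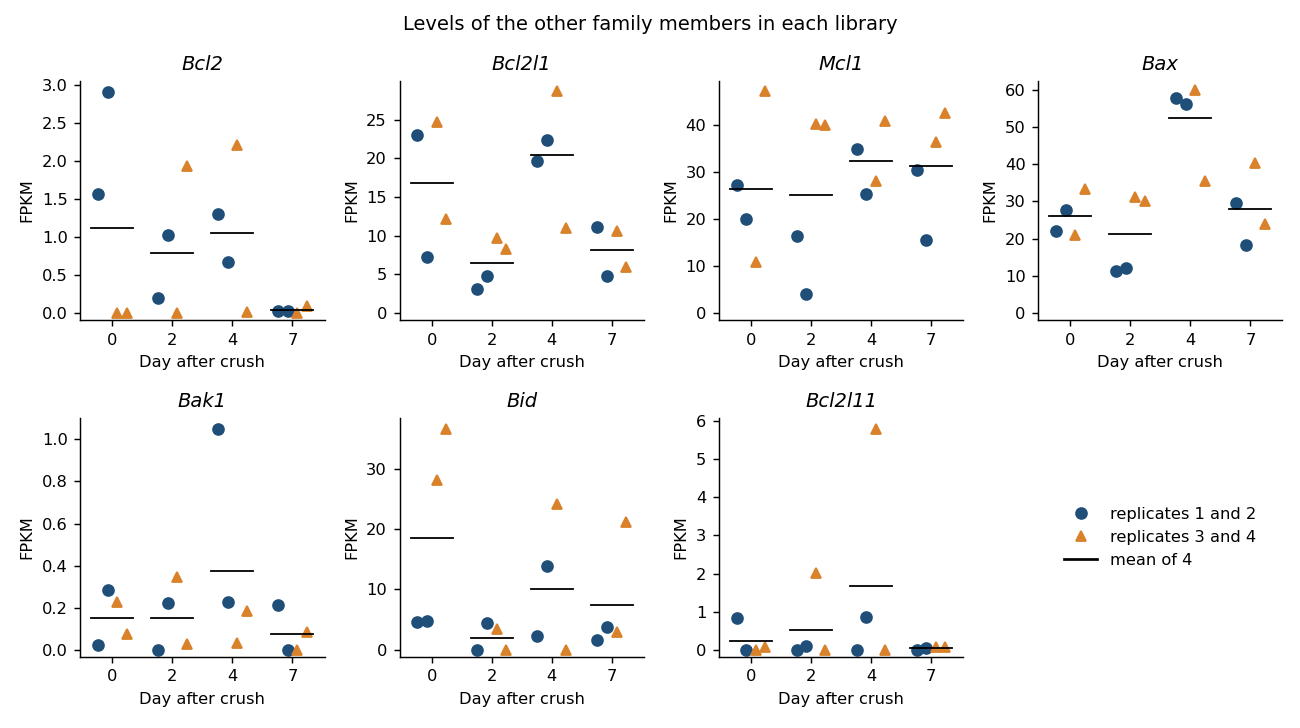
FPKM of the 7 other members against the day after crush, on a linear axis of its own for each gene, with 1 point per library (circles, replicates 1 and 2; triangles, replicates 3 and 4) and a bar at the mean of 4. Bax was highest at day 4 (35.5 to 59.9 FPKM), and Bcl2, Bak1 and Bcl2l11 stayed at or under 5.8 FPKM in all 16 libraries.

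Among the death genes Bax (chr7:45461697-45466898, minus strand), a pore former, stood at its highest at day 4, short of the threshold. It was at 22.0, 27.7, 20.9 and 33.2 FPKM at day 0, 11.4, 12.1, 31.3 and 30.1 at day 2, 57.7, 56.2, 59.9 and 35.5 at day 4, and 29.5, 18.2, 40.2 and 24 at day 7. The 4 day 4 libraries lay above all libraries of day 0, as for 12.6% of tested genes, and above all of day 2, as for 7.83%. Means were 25.9 ± 5.68, 21.3 ± 11, 52.3 ± 11.3 and 28.0 ± 9.37 FPKM (SD, n = 4), and day 4 was at 0.98 ± 0.35 (SE) against day 0 (adjusted p = 0.12), 1.17 within batch 1 and 0.78 within batch 2. Against day 2 the difference was 1.38 ± 0.35 (adjusted p = 0.107), with 2.18 in batch 1 and 0.57 in batch 2, and day 7 against day 4 was -0.91 ± 0.35 (0.206). Reads of Bax were whole in 1 of 16 libraries, and 192 of its exon bases (12.2%) are shared on the same strand with the gene model Gm45808, so its level carries the same kind of uncertainty as the Bcl2a1 copies. The other 2 day 0 comparisons were at -0.40 ± 0.35 (day 2) and 0.07 ± 0.35 (day 7).

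Bak1 (chr17:27019810-27029009, minus strand), the other pore former, was far lower than Bax in every library. It was at 0.0217, 0.286, 0.225 and 0.0755 FPKM at day 0, 0, 0.223, 0.348 and 0.0296 at day 2, 1.05, 0.229, 0.0323 and 0.185 at day 4, and 0.214, 0, 0 and 0.0843 at day 7. At most 29.5 reads fell on it in any library, the groups overlapped, and 3 reads are worth 0.0793 to 0.144 FPKM, so differences between days were not detectable at this depth. Its exons overlap those of Ggnbp1 on the opposite strand over 437 bases (18.2%), and the kit did not mark strand, so reads of the pair cannot be told apart there.

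Bid (chr6:120891930-120916853, minus strand), which links death receptors to the mitochondrion once it is cut by caspase-8, varied widely between libraries. It was at 4.68, 4.79, 28.2 and 36.6 FPKM at day 0, 0, 4.52, 3.52 and 0.02 at day 2, 2.29, 13.9, 24.1 and 0 at day 4, and 1.64, 3.8, 3.0 and 21.1 at day 7. All 4 day 2 libraries were below all 4 of day 0, as for 1.35% of tested genes, though the highest day 2 library and the lowest day 0 library were at 4.52 and 4.68 FPKM. The change was -2.62 ± 1.03 (adjusted p = 0.392), with -1.29 in batch 1 and -3.95 in batch 2. Days 4 and 7 were at -1.22 ± 1.03 (0.548) and -1.25 ± 1.03 (0.652). Bid shares 628 exon bases (17.7%) with Bcl2l13 on the opposite strand, with the same limit as for Bak1.

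Bcl2l11 (Bim; chr2:128126038-128162547, plus strand) was above 1 FPKM in 2 libraries only, at 2.02 in day 2 replicate 3 and 5.80 in day 4 replicate 3, and was listed at 0 in 7 of the 16. Its values were 0.831, 0, 0 and 0.0815 at day 0, 0, 0.111, 2.02 and 0 at day 2, 0, 0.874, 5.80 and 0 at day 4, and 0, 0.0515, 0.0705 and 0.0759 at day 7. The highest value came from 599 reads, while the other libraries of the same day were at 0.874 FPKM or less. A level carried by 1 library a day describes that library and not the day.

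**Figure D3:**
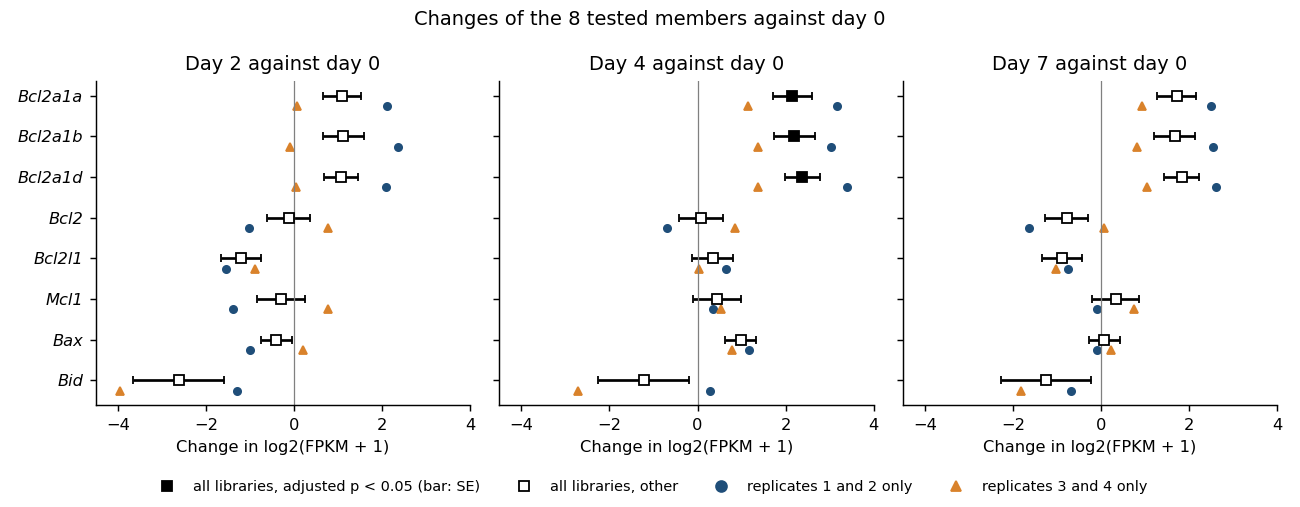
Change in log2(FPKM + 1) against day 0 for the 8 tested members at days 2, 4 and 7, as squares with the SE (filled where the adjusted p was under 0.05), with the change within replicates 1 and 2 (circles) and within replicates 3 and 4 (triangles). The filled squares are the 3 Bcl2a1 copies at day 4, and for each copy the circle lies to the right of the triangle at every day.

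By level, FPKM being per length of the gene, the 3 Bcl2a1 copies held most of the summed level of the 10 genes after crush. Their sum was 182 ± 142 FPKM at day 0, 288 ± 41.9 at day 2, 664 ± 227 at day 4 and 477 ± 211 at day 7 (SD, n = 4). That was 60.0% ± 17.8 of the summed FPKM of the 10 genes at day 0, ranging from 38.5% to 79.7%, and then 84.1% ± 7.81, 84.5% ± 2.16 and 86.0% ± 3.5 at days 2, 4 and 7. The lowest library was at 75.5% at day 2, 82.5% at day 4 and 81.4% at day 7. Mcl1 held 12.5% ± 7.64 of the sum at day 0 and 4.48% ± 1.84 at day 4, and Bax 12.6% ± 7.17 and 6.92% ± 1.62. Bcl2l1 held 8.04% ± 6.69 at day 0 and 2.61% ± 0.611 at day 4. These shares are a description of RNA with no test, and they rest on the same low Bcl2a1 values of day 0 replicates 1 and 2.

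**Figure D4:**
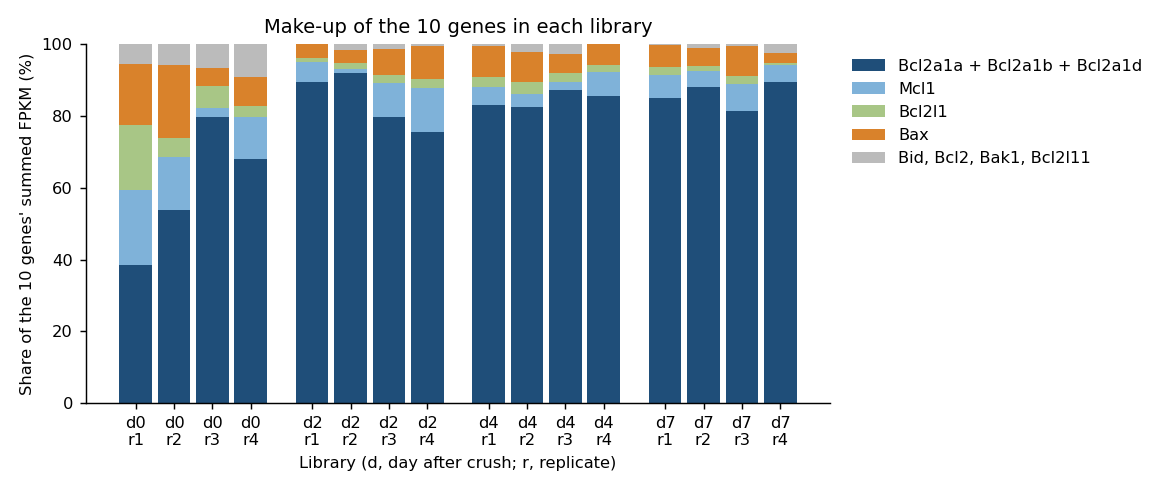
Share of the summed FPKM of the 10 genes (%) in each library, from day 0 replicate 1 to day 7 replicate 4, stacked for the Bcl2a1 copies, Mcl1, Bcl2l1, Bax and the remaining 4 genes together. The Bcl2a1 copies hold 38.5% to 79.7% at day 0 and 75.5% to 91.9% from day 2 on.

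Other genes of the pathway were read from 5 lists. Of the 17 further family genes, such as Bad, Bbc3 (Puma), Pmaip1 (Noxa) and Bnip3, 12 were tested and none was called in any of the 6 comparisons by limma. At day 4 against day 0, 4 of the 12 had an unadjusted p under 0.05 (0 to 2 in the other comparisons), against 20.9% of all tested genes, and the list's median change was 0.40, against 0.16 over all genes. Of 16 apoptosome, caspase and inhibitor genes 15 were tested, and 1 rose at day 4, where 4.62% of all tested genes were called as higher. The count is close to that background. The gene was Cycs, cytochrome c, which carries electrons in respiration and starts the apoptosome once released. It went from 34.6 ± 9.36 to 113 ± 13.5 FPKM (SD, n = 4), by 1.70 ± 0.30 with an adjusted p of 0.0063. All 4 libraries were above day 0, as for 12.6% of tested genes. Within the batches the change of Cycs was 1.65 and 1.76. The call was lost in batch 2 alone (adjusted p = 0.214), with the bipolar and Mueller glia covariate (1.40, 0.237) and without both day 0 libraries of batch 1 (1.6, 0.0515). The list's median change was -0.02.

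Of 16 genes for regulators of family members 15 were tested, and 2 rose at day 4, against the same 4.62% of all tested genes. Both are channels of the outer mitochondrial membrane. Vdac3 went from 20.2 ± 0.983 to 47.1 ± 10.8 FPKM (1.16 ± 0.27, adjusted p = 0.0238). Vdac2, which also binds Bak1, went from 47.9 ± 10.5 to 95.8 ± 13.2 FPKM (1.0 ± 0.26, adjusted p = 0.0351). All 4 libraries of each were above day 0, as for 12.6% of tested genes. Within batches 1 and 2 the changes were 0.95 and 1.37 for Vdac3 and 0.85 and 1.15 for Vdac2. The call was lost for Vdac3 in 13 of 33 alternatives and for Vdac2 in 19 of 33, among them median-of-ratios scaling (0.70, adjusted p = 0.178, and 0.53, adjusted p = 0.316). The list's median change was -0.05. None of the 9 tested of 13 death receptor genes, such as Fas, Casp8 and Ripk1, was called in any comparison by limma, nor had one an unadjusted p under 0.05, although their median at day 4 was 0.86. None of the 8 tested of 9 genes for NF-kB subunits and survival targets was called in any comparison by limma (0 to 3 had an unadjusted p under 0.05), and their median change was 0.12 at day 4 against day 0 and 0.94 at day 4 against day 2. No gene of the 5 lists was called as lower in any comparison.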

How the data were processed

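RNA sequencing of 16 libraries of sorted cells was used as 1 deposited table of FPKM for 55385 genes, which the authors made. Per the submitters' processing notes, STAR 2.7.2b and featureCounts 1.6.1 and the build GRCm38.p6 were used. The treatment of multiply mapped reads was not given in the sources used here. Per the labels' protocols, cDNA was amplified and made into libraries with a kit that does not mark strand. Length times FPKM, divided by the step common to a library, gave reads on a grid of 0.01 read (tolerance 0.02 steps). Between 46.9% and 63.4% of values above 0 were whole reads, so no count test was run. All 37 mitochondrial genes were listed at 0. Amplified reads are not independent molecules, so limits for a value of 0 (3 reads) cover counting error only.

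Groups and replicate numbers came from the labels. A gene was tested if 4 or more libraries had 1 FPKM or more (14795 genes), with limma 3.58.1 (lmFit, eBayes with trend) in R 4.3.3 on log2(FPKM + 1). All 16 libraries were in 1 fit, with the batch (first digits of the title code) as covariate. Tests were two-sided, with Benjamini-Hochberg adjustment over all tested genes and a threshold of 0.05. Within-batch changes came from an interaction fit. No 2 libraries were identical (highest correlation 0.8874). The fit was tested on simulated data.

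The members and lists were chosen with earlier results of these data known. Named genes were the 10 members, pathway genes called in any comparison (at most 4 a list), and for each called member the 3 genes of at least 5 FPKM on average with the highest Pearson correlation. Gm29094 was added because it shares exon bases with Bcl2a1b. Alternatives covered the pseudocount, filter, scaling, batch term, replicate block, eBayes trend, marker lists as covariates and left-out libraries. Coordinates and transcripts are from GENCODE on GRCm38, promoter windows from RefSeq.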

Additional observations from a re-analysis of the deposited data

Results flagged for a closer look

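In 6 of the 40 groups of 4 libraries formed by a member and a day, 1 library stood apart from the other 3, by a gap to its nearest neighbour that took up most of the group's range. For normally distributed values chance gives about 1 in 20 groups, and over all tested genes 15.6% of 59180 such groups had a gap of this size, so 6 of 40 is near that share. Bcl2a1b reached 370 FPKM in day 4 replicate 3, with the next library at 204, and Bax was at 35.5 in day 4 replicate 4, with the next at 56.2. Bid was at 21.1 FPKM in day 7 replicate 4, with the next at 3.8. Bcl2l11 was flagged at 3 days, at 0.831 in day 0 replicate 1 (next 0.0815), 2.02 in day 2 replicate 3 (next 0.111) and 5.80 in day 4 replicate 3 (next 0.874).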

How the results depend on the processing

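Of the 8 tested members, 3 were called at day 4 against day 0. The count was 1 under median-of-ratios scaling, 0 in batch 2 alone, 0 with the bipolar and Mueller glia lists as covariate and 1 without both day 0 libraries of batch 1, and it ran from 1 to 3 when single libraries were left out (1 without day 4 replicate 2). At day 2 it was 0, and 1 in batch 1 alone (Bcl2a1a, adjusted p = 0.0498). At day 7 it was 0, but 1 (Bcl2a1d) with a filter of 5 FPKM, under median-of-ratios scaling and when scaled to the microglia list (adjusted p of 0.0422, 0.0457 and 0.0261), and from 0 to 2 with single libraries left out (2 without day 0 replicate 3). At day 4 against day 2 it was 0, and 1 when scaled to the microglia list (Bcl2a1d, 0.0482). In the F test it was 2, but 1 with a pseudocount of 0.1, median-of-ratios scaling, no batch term, the replicate block, the full title code, no libraries with the letter F (day 2 replicates 3 and 4, where the other titles have M), no trend or no batch 1 libraries at day 0. It was 0 with no filter, in batch 2 alone and with the bipolar and Mueller glia covariate, and 0 to 3 with single libraries left out, where it moved in 12 of 16. The alternatives with the microglia list and without both day 0 libraries of batch 1 were chosen after seeing the data. The cause was not tested.

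With the replicate number as a block, the day 4 count stayed at 3, the F test gave 1, and Vdac2 lost its call at day 4 (adjusted p = 0.0598). Same-numbered libraries deviated together at r = -0.056 to 0.234 (median 0.0395), with 5 of 24 pairs over 0.1. Pairs of the same batch with another number had a median of 0.0475, with 4 of 24 over 0.1. Groups of mice of different ages cannot share an animal. Whether a shared number marks shared handling cannot be told from these values.

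Over all genes, 790 were called at day 4 against day 0, 278 under median-of-ratios scaling, 308 with no filter, 379 with the full title code, 425 when scaled to the microglia list, 284 without both day 0 libraries of batch 1, 0 in batch 2 alone and 0 with the bipolar and Mueller glia covariate. Without single libraries the counts ran from 283 to 957.

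Directions that reversed were all of changes that were not called. With the bipolar and Mueller glia covariate, day 2 against day 0 was -0.15 for Bcl2a1a, -0.14 for Bcl2a1b, -0.087 for Bcl2a1d, 0.22 for Bcl2 and 0.38 for Mcl1, and day 7 against day 4 was 0.62, 0.54 and 0.42 for Bcl2a1a, Bcl2a1b and Bcl2a1d. In batch 2 alone, day 2 was -0.10 for Bcl2a1b, 0.78 for Mcl1 and 0.21 for Bax, and day 4 against day 2 was -0.24 for Mcl1. In batch 1 alone, day 4 was -0.69 for Bcl2 and 0.29 for Bid, and day 7 was -0.10 for Mcl1 and -0.085 for Bax. Under median-of-ratios scaling, day 4 was -0.14 for Bcl2, -0.10 for Bcl2l1 and -0.016 for Mcl1, and day 7 against day 4 was 0.015 for Bcl2a1a. With the full title code, day 2 was 0.36 for Bcl2, 0.40 for Mcl1 and 0.083 for Bax, day 4 was -0.28 for Bcl2, and day 4 against day 2 was -0.64 for Bcl2. Without both day 0 libraries of batch 1, Bcl2 was 0.72 at day 2 and 0.057 at day 7, and Mcl1 0.23 at day 2. Bcl2 was also 0.11 at day 2 with a pseudocount of 0.1, 0.027 at day 2 with the microglia list as covariate, -0.0025 at day 4 with a pseudocount of 5 and -0.15 at day 4 when scaled to the microglia list. With single libraries left out, Bcl2 ran from -0.51 to 0.22 at day 2, -0.28 to 0.42 at day 4 and -0.15 to 0.58 at day 4 against day 2, Mcl1 from -0.81 to 0.27 at day 2, -0.071 to 0.66 at day 4 and -0.18 to 0.55 at day 7, and Bax from -0.10 to 0.20 at day 7. Bcl2a1c was -0.29 at day 4 with the bipolar and Mueller glia covariate, and Bcl2a1b -0.11 at day 7 against day 2 without the letter F libraries.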
